A study of Mus musculus with 9 samples.

Results

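Microglia identity genes are genes by which microglia, the resident macrophages of the brain, are told from other macrophages and from other brain cells. The 8 genes described here are Cx3cr1, Gpr34, Fcrls, Siglech, Tmem119, Olfml3, Sall1 and Slc2a5, chosen by name. All 8 have a row of their own in the deposited table of 21212 rows. The study compared primary microglia in a resting state (PBS), an M1-skewed state (LPS) and an M2a-skewed state (IL-4), each condition on 3 of the 9 arrays. The cells came from the brains of wild-type CD-1 pups and were grown for 5 to 7 days in medium with serum and with M-CSF and GM-CSF, each at 10 ng/ml. Serum was then withdrawn overnight, and the cells were stimulated for 4 h. LPS was given at 100 ng/ml and IL-4 at 20 ng/ml, and resting cells received PBS alone. All 3 conditions therefore share the growth factors, the serum withdrawal and the time in culture. The brains of a litter were pooled, and nothing says that the 3 arrays of a condition came from separate preparations, so the spread behind the p-values is that of the arrays and can be technical. A mouse exon array measures each gene through many probes, and the values are log2 values after RMA, a method that corrects background, equalizes the arrays and summarizes probes. Each gene has its own probes, so the level of a gene is read only against its own level on other arrays.

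In the brain, microglia keep their identity program through signals from the tissue around them, with TGF-beta and the ligands of CSF1R as the best known. Fractalkine made by neurons acts on Cx3cr1, and lysophosphatidylserine acts on Gpr34. LPS acts through Toll-like receptor 4 and NF-kappaB, whereas IL-4 acts through STAT6, and isolated microglia in culture are known to lose part of the identity program.

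The conditions carried the marks of their stimuli. Il6, a proinflammatory cytokine gene, lay between 12.17 and 12.37 on the LPS arrays and between 3.31 and 3.71 on the PBS arrays. Chil3, a gene of alternative activation, lay between 9.49 and 9.90 on the IL-4 arrays and between 3.83 and 4.45 on the PBS arrays. Of 7 such genes of either kind 4 rose with LPS and 6 with IL-4, and 0 fell (limma). The marks were not all clean. Arg1, also of alternative activation, measured 7.50, 6.93 and 9.36 on PBS and 10.69 to 11.30 on IL-4. The cytokine gene Il1b measured 6.92 to 7.12 on PBS, 8.13 to 8.39 on IL-4 and 12.61 to 12.72 on LPS. The general myeloid genes Lyz2 (lysozyme) and Fcer1g (an Fc receptor chain) had the highest means of 11 pan-myeloid genes and lay within 12.76 to 12.92 and 12.26 to 12.52 on the 9 arrays. Of these 11 genes 3 rose and 5 fell with LPS, and 0 rose and 2 fell with IL-4 (limma), so not all of them were level. Of all rows 15.4% rose and 22.4% fell with LPS, and 3.35% and 2.05% with IL-4. After subtraction of array medians 3 of the 11 rose and 2 fell with LPS, against 27.7% and 15.7% of all rows. Cd14, which encodes a co-receptor for LPS, measured 10.67 to 10.83 on PBS and 12.28 to 12.53 on LPS. The astrocyte genes Aldoc and Aqp4 were measured as well, at 11.21 to 12.02 and 11.32 to 12.09. Replicate 3 of PBS and replicate 3 of LPS stood apart from the other arrays of their condition, and differences of the 8 genes from PBS are given with and without them. These arrays were singled out from the same data, so p-values without them are no independent support. In cultures measured in bulk, fewer cells of a type and less RNA per cell cannot be told apart.

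The RefSeq promoter table (GRCm38.p6) held 6 of the 8 genes, and Gpr34 and Tmem119 had no entry in it. The 250 bases before each start site were searched on both strands for AGGAAG, a form of the core sequence bound by PU.1, the factor that myeloid cells depend on. It was held by 29.5% of the 32851 listed promoters of the same length, and by 3 of the 8 listed promoters of the 6 genes, 1 each for Fcrls, Olfml3 and Sall1. Fcrls had 4 matches, a number reached or passed by 0.268% of all promoters, although its window lies mostly inside the annotated gene, Olfml3 had 1, and Sall1 had 1 in 1 of its 3 listed promoters. Cx3cr1, Siglech and Slc2a5 had 0. A match is only a match of letters in this window. The stretches of Cx3cr1 (chr9:120068297-120068546, minus strand) and Olfml3 (chr3:103738002-103738251, minus strand) are shown 5′ to 3′ because both genes fell with LPS while only Olfml3 holds the motif, which is in capitals.
Cx3cr1: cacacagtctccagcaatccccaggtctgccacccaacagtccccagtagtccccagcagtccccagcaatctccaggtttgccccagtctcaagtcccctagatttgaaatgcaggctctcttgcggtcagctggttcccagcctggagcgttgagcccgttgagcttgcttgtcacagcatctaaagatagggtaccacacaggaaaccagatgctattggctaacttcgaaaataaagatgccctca
Olfml3: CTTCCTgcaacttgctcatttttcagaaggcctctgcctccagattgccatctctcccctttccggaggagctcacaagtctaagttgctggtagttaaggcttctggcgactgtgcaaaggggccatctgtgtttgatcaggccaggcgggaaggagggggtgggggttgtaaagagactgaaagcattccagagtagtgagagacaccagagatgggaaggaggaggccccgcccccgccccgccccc

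Cx3cr1, the fractalkine receptor, measured 9.15, 9.22 and 10.86 on PBS replicates 1, 2 and 3. On LPS it measured 7.74, 7.60 and 8.49, and on IL-4 it measured 9.31, 9.55 and 9.46. All 3 LPS arrays lay below all PBS and all IL-4 arrays, whereas the IL-4 values lay between PBS replicate 2 and PBS replicate 3. With LPS, Cx3cr1 fell by 1.80 ± 0.44 (SE) against PBS, a 3.49-fold lower signal (limma, Benjamini-Hochberg adjusted p = 0.0108). Without replicate 3 of LPS and of PBS the difference was −1.52 ± 0.09 (adjusted p = 8.74e-06).

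Gpr34, a receptor for lysophosphatidylserine, measured 4.34, 4.58 and 6.14 on PBS, 3.62, 3.49 and 3.55 on LPS, and 3.53, 3.65 and 3.71 on IL-4. Both stimuli gave values below every PBS array, and the LPS and IL-4 arrays overlapped. Against PBS, the gene fell with LPS by 1.47 ± 0.39 (adjusted p = 0.0177), and the IL-4 difference of −1.39 ± 0.39 missed the threshold (adjusted p = 0.0864). Without replicate 3 of LPS and of PBS these were −0.91 ± 0.10 and −0.83 ± 0.09, both past it (adjusted p = 0.00022 and 0.000661). The stimulated values were low for this table. For orientation, 1255 rows of olfactory and vomeronasal receptor genes had a median of 3.85, with a 5th to 95th percentile of 2.69 to 5.73, although their probes differ and set no detection limit.

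Fcrls, an Fc receptor-like scavenger receptor, had the widest range of the 8 genes within PBS and within LPS. Its PBS values were 7.40, 7.67 and 10.35 and its LPS values 7.31, 7.11 and 9.31, whereas the IL-4 values were 9.64, 10.03 and 9.93. Replicate 3 of PBS lay above every IL-4 array, and replicate 3 of LPS lay above replicates 1 and 2 of PBS. The range within PBS was 2.95, and the range within IL-4 was 0.39. Neither the LPS difference from PBS (−0.56 ± 0.82, adjusted p = 0.631) nor the IL-4 difference (1.40 ± 0.82, adjusted p = 0.374) passed the test over 9 arrays. The LPS difference was −0.32 ± 0.15 with replicate 3 of both conditions left out (adjusted p = 0.115). When the replicate number was entered as a block in the 6 LPS and PBS arrays, the same LPS difference passed (−0.56 ± 0.18, adjusted p = 0.0498). The numbers were not taken to pair the arrays. Within a replicate number, LPS minus PBS was −0.09, −0.56 and −1.04.

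Siglech, a sialic acid-binding lectin, measured 5.90, 5.90 and 6.10 on PBS, 6.15, 5.90 and 6.01 on LPS and 5.87, 5.83 and 5.84 on IL-4. PBS replicates 1 and 2 and LPS replicate 2 held exactly the same value, as 3 or more arrays do in 13.5% of all rows. The IL-4 arrays lay below all PBS arrays by little, with a mean difference of −0.12 ± 0.08 (adjusted p = 0.423). With LPS the difference was 0.05 ± 0.08 (adjusted p = 0.650), and the arrays overlapped. With replicate 3 of both conditions left out these were −0.05 ± 0.07 with IL-4 (adjusted p = 0.595) and 0.12 ± 0.08 with LPS (adjusted p = 0.246).

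Tmem119, a transmembrane protein gene, had the smallest error among the genes that fell with LPS. It measured 6.90, 6.91 and 7.30 on PBS, 6.19, 6.40 and 6.41 on LPS and 7.20, 7.31 and 7.32 on IL-4. Every LPS array lay below every PBS and IL-4 array. With LPS it fell by 0.70 ± 0.11 (adjusted p = 0.00135), and by 0.61 ± 0.08 without replicate 3 of LPS and of PBS (adjusted p = 0.000484). With IL-4 the difference was 0.24 ± 0.11 (adjusted p = 0.276) over 9 arrays.

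Olfml3, which encodes a secreted olfactomedin-like protein, measured 9.73, 9.85 and 10.52 on PBS, 9.29, 9.19 and 9.47 on LPS and 10.04, 9.86 and 9.83 on IL-4. The LPS arrays lay below all others. The gene fell with LPS by 0.71 ± 0.19 (adjusted p = 0.0167), and by 0.55 ± 0.08 without replicate 3 of LPS and of PBS (adjusted p = 0.00138). With IL-4 the difference was −0.12 ± 0.19 (adjusted p = 0.749), and 0.12 ± 0.08 without these arrays (adjusted p = 0.278).

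Sall1, a zinc finger repressor that maintains microglial identity, measured 8.75, 8.80 and 9.02 on PBS, 8.84, 8.95 and 8.87 on LPS and 9.02, 8.90 and 8.93 on IL-4. The 3 conditions overlapped, with differences from PBS of 0.03 ± 0.08 for LPS (95% interval −0.14 to 0.21) and 0.10 ± 0.08 for IL-4 (−0.08 to 0.27). Leaving out replicate 3 of LPS and of PBS gave 0.12 ± 0.06 (adjusted p = 0.149) and 0.18 ± 0.06 (adjusted p = 0.0540). Slc2a5, the fructose transporter GLUT5, measured 5.36, 5.34 and 5.62 on PBS, 5.34, 5.37 and 5.30 on LPS and 5.23, 5.32 and 5.12 on IL-4. All these values lay under 5.73, the 95th percentile of the olfactory and vomeronasal receptor rows, which set no detection limit. The IL-4 arrays lay just below all PBS arrays, and the difference of −0.21 ± 0.09 missed the threshold (adjusted p = 0.208). With LPS the difference was −0.10 ± 0.09 (95% interval −0.30 to 0.10). In the fit without replicate 3 of both conditions the differences were −0.12 ± 0.06 with IL-4 (adjusted p = 0.190) and 0.0064 ± 0.07 with LPS (adjusted p = 0.951).

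**Figure D1:**
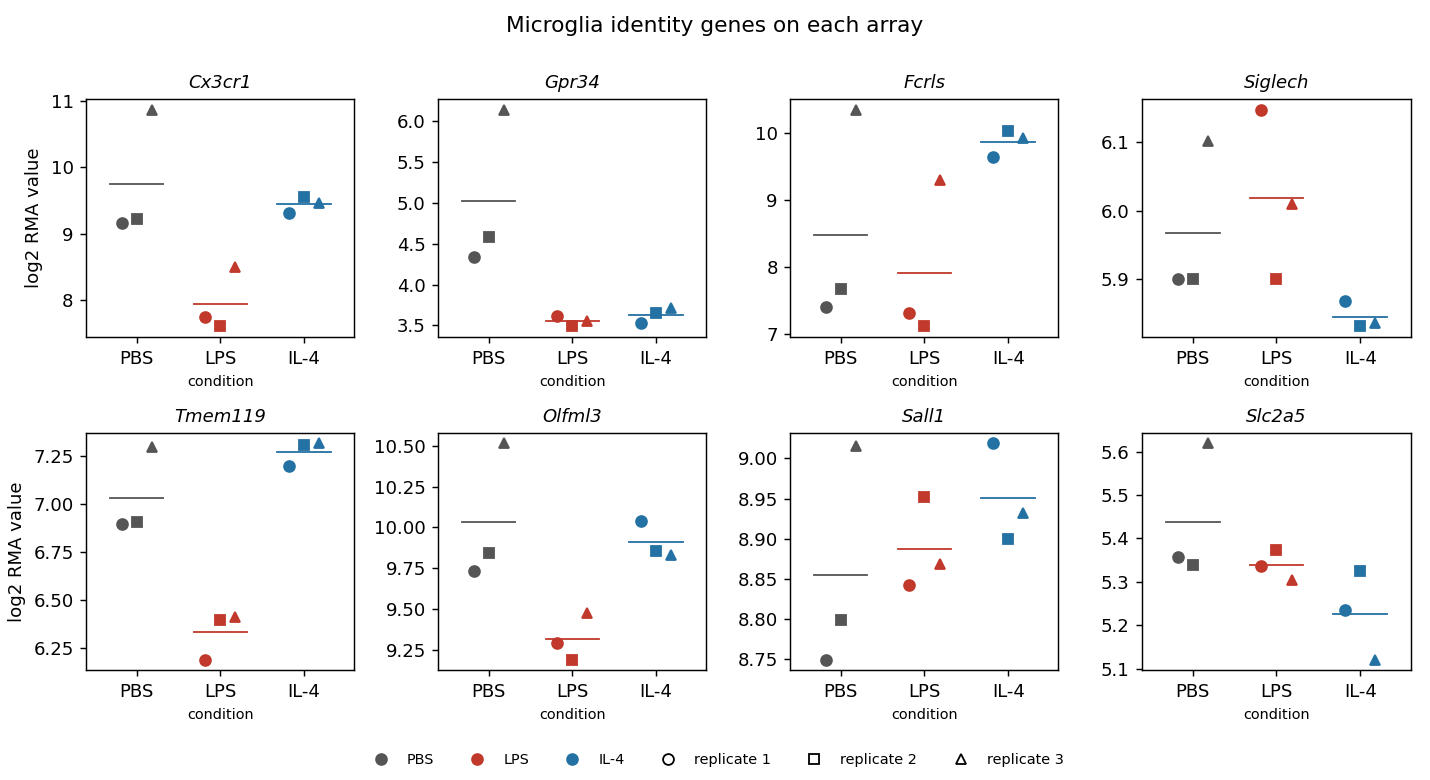
Deposited log2 RMA values of the 8 genes on the 9 arrays, 1 panel per gene with its own axis; points are arrays (circle, square and triangle for replicates 1, 2 and 3) and lines are condition means. PBS replicate 3 is the highest PBS array in all 8 panels, and the LPS arrays lie below the PBS arrays for Cx3cr1, Gpr34, Tmem119 and Olfml3.

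The design sets the M1-skewed and M2a-skewed states against rest and against each other. With LPS, 4 of the 8 genes fell (Cx3cr1, Gpr34, Olfml3 and Tmem119) and none rose, where 22.4% of all rows were called lower and 15.4% higher. The split over all rows depends on the scaling, with 15.7% lower and 27.7% higher after subtraction of array medians, and the 4 genes were called lower in that setting too. The median change of the 8 genes was −0.63, and that of all rows was 0.01. Without replicate 3 of LPS and of PBS these 4 genes were again the ones called lower, against 28.3% of all rows, with a median of −0.44 over the 8 genes. By the methods' t-test Tmem119 alone passed (adjusted p = 0.0415), whereas Cx3cr1, Olfml3 and Gpr34 did not (adjusted p = 0.124, 0.137 and 0.153). In limma on the 6 LPS and PBS arrays, Cx3cr1 and Tmem119 passed (adjusted p = 0.0401 and 0.00904) and Olfml3 and Gpr34 did not (0.0501 and 0.0569). The calls of Gpr34 and Olfml3 also rested on single arrays, since both were lost without LPS replicate 2 (largest adjusted p = 0.051 and 0.057 with 1 array left out), and that of Olfml3 was lost without LPS replicate 1.

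With IL-4, 0 of the 8 genes passed the test against PBS over 9 arrays (limma), and 2 of them, Gpr34 and Slc2a5, had an unadjusted p under 0.05. Of all rows 3.35% were called higher and 2.05% lower, and 2.16% and 2.14% after subtraction of array medians. PBS replicate 3 was the highest PBS array for all 8 genes, so leaving it out raises each IL-4 difference by construction. It also narrows the errors, and p-values of that fit are no independent support. Without replicate 3 of LPS and of PBS, 4 genes passed. Fcrls was higher by 2.33 ± 0.13 (adjusted p = 7.59e-05), Tmem119 by 0.37 ± 0.07 (adjusted p = 0.00722) and Cx3cr1 by 0.25 ± 0.08 (adjusted p = 0.0496), and Gpr34 was lower. In that fit 16.6% of all rows were called higher and 13.5% lower. It also called 15 of 16 motile cilia genes (median change 1.04) and 9 of 13 astrocyte genes higher with IL-4, with 0 and 1 lower. Of 12 fibroblast and meningeal genes 6 were higher and 0 lower, and of 12 oligodendrocyte lineage genes 5 were higher and 2 lower. Over all 9 arrays 4 of the 12 fibroblast and meningeal genes were higher with IL-4 and 0 lower, against 3.35% and 2.05% of all rows. The part of these lists in the Fcrls difference was not tested. Without PBS replicate 3 alone, Fcrls, Tmem119 and Gpr34 passed, and Cx3cr1 did not (adjusted p = 0.501).

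Between the stimuli, Cx3cr1, Olfml3 and Tmem119 were lower with LPS than with IL-4, by −1.50 ± 0.44 (adjusted p = 0.0221), −0.59 ± 0.19 (adjusted p = 0.0319) and −0.94 ± 0.11 (adjusted p = 0.00023) respectively, and 25.9% of all rows were called lower and 21.0% higher. After subtraction of array medians 17.4% of all rows were lower and 45.1% higher, and Olfml3 was no longer called. Each LPS array of Fcrls lay below each IL-4 array, but the difference of −1.96 ± 0.82 missed the threshold (adjusted p = 0.0786). Without replicate 3 of LPS and of PBS, Fcrls passed as well (−2.66 ± 0.13, adjusted p = 3.61e-06), so that 4 genes were lower, against 32.3% of all rows. For Gpr34 the difference between the stimuli was −0.08 ± 0.39, with a 95% interval of −0.98 to 0.82. That error pools in the spread of the PBS arrays (standard deviation 0.97, against 0.06 on LPS and 0.09 on IL-4). In a fit to the LPS and IL-4 arrays alone the Gpr34 difference was −0.08 ± 0.07, with a 95% interval of −0.24 to 0.09. Of the 8 genes, Tmem119 alone was called without LPS replicate 1 or 2, or without IL-4 replicate 2 or 3, and Olfml3 was lost without IL-4 replicate 1 too. These comparisons share the arrays of a condition and are therefore not independent of each other.

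**Figure D2:**
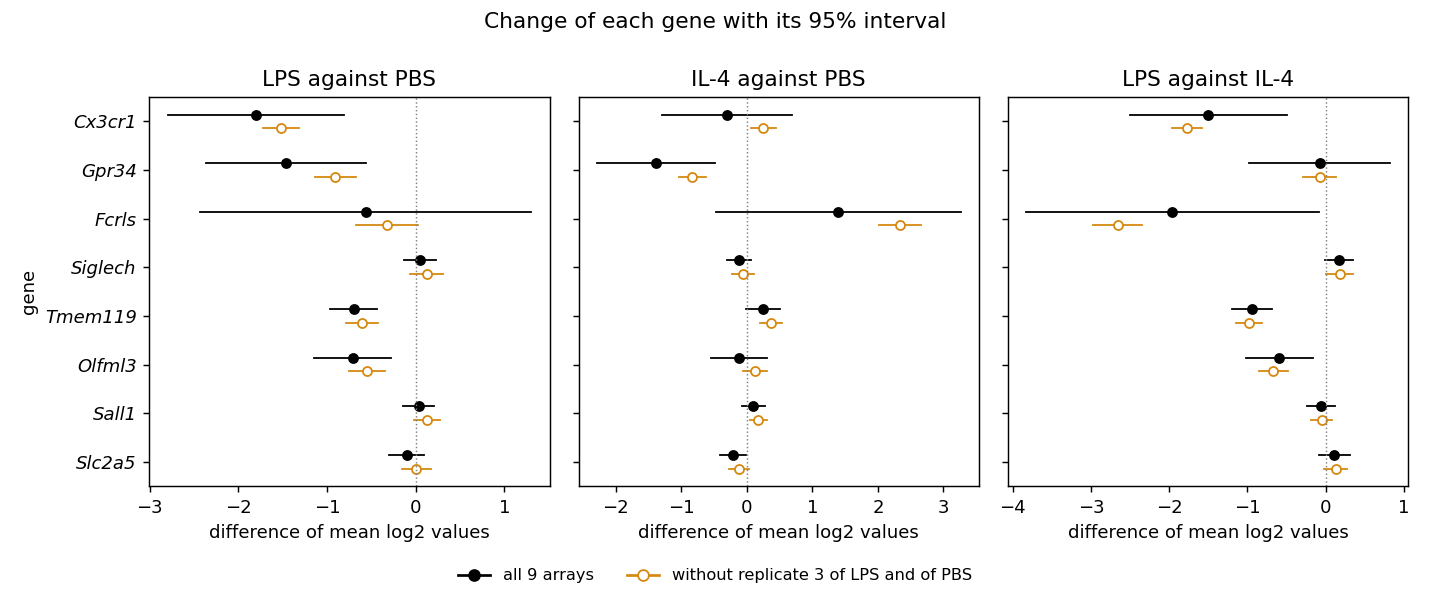
Differences of mean log2 values (x axis) for the 8 genes in the 3 comparisons, with 95% intervals from the moderated variance; filled points use 9 arrays and open points leave out replicate 3 of LPS and of PBS. The IL-4 difference of Fcrls goes from 1.40 with 9 arrays to 2.33 without these arrays.

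Since the PBS arrays differed, the stimulated means were also set against each PBS array by itself. For LPS the direction held against each of them for Cx3cr1 (−1.21, −1.27 and −2.92 against PBS replicates 1, 2 and 3), Gpr34 (−0.79, −1.03 and −2.58), Olfml3 (−0.41, −0.53 and −1.20) and Tmem119 (−0.56, −0.57 and −0.97). For Fcrls the LPS mean was above PBS replicates 1 and 2 by 0.51 and 0.24 and differed from replicate 3 by −2.44. The size of each fall thus depended on the PBS array. The direction could not differ for these 4 genes, since all their LPS arrays lay below all PBS arrays. Slc2a5, which was not called, kept its direction as well (−0.02, −0.0017 and −0.28).

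For IL-4 the direction depended on the PBS array for 5 of the 8 genes. The Fcrls mean was above PBS replicates 1 and 2 by 2.47 and 2.20 and differed from replicate 3 by −0.48. Cx3cr1 gave 0.28, 0.22 and −1.42, and Olfml3 gave 0.18, 0.06 and −0.61. Tmem119 (0.38, 0.37 and −0.02) and Sall1 (0.20, 0.15 and −0.07) changed sign by small amounts, whereas Gpr34 (−0.71, −0.95 and −2.51), Slc2a5 (−0.13, −0.11 and −0.39) and Siglech (−0.05, −0.05 and −0.26) lay below all 3 PBS arrays.

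**Figure D3:**
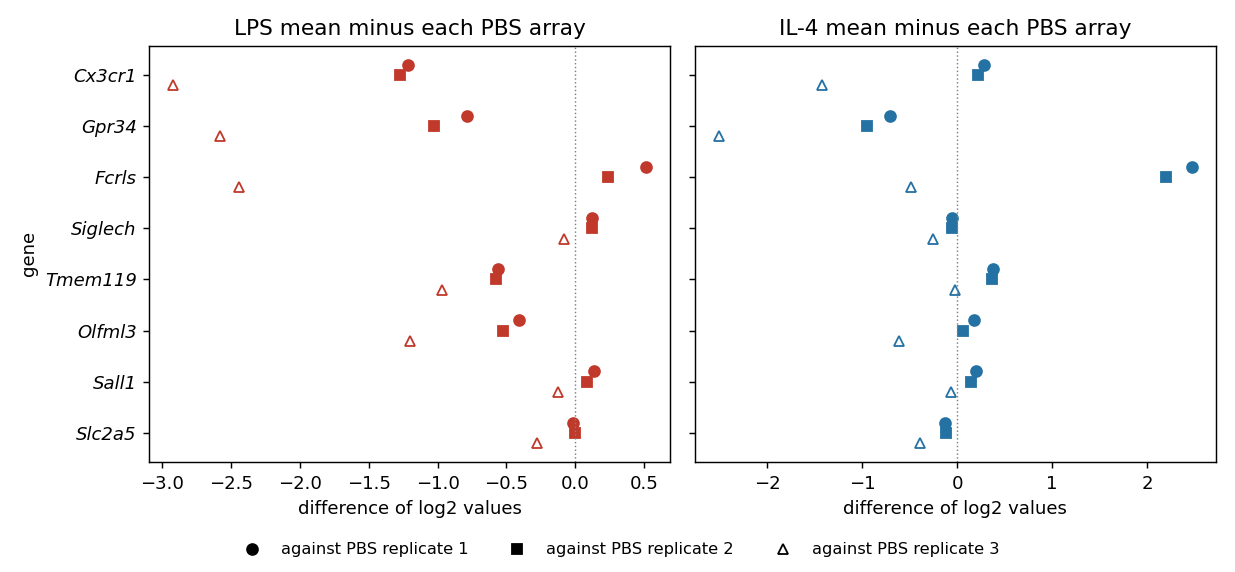
Mean log2 value of the 3 LPS arrays (left) and of the 3 IL-4 arrays (right) minus the value of each PBS array, per gene; filled circles and squares are PBS replicates 1 and 2 and open triangles PBS replicate 3. The triangles lie to the left of the other points for all 8 genes, and for Fcrls with IL-4 the points run from −0.48 to 2.47.

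PBS replicate 3 exceeded both other PBS arrays for 8 of the 8 genes, as it did for 31.5% of all rows. The excess over the mean of replicates 1 and 2 was 2.82 for Fcrls, 1.68 for Cx3cr1 and Gpr34, 0.73 for Olfml3, 0.40 for Tmem119, 0.27 for Slc2a5, 0.24 for Sall1 and 0.20 for Siglech. LPS replicate 3 exceeded both other LPS arrays for 4 of the 8 genes, as for 32.3% of all rows. There the excess was 2.10 for Fcrls, 0.82 for Cx3cr1, 0.23 for Olfml3 and 0.12 for Tmem119. The LPS values of Gpr34 (3.62, 3.49 and 3.55) held no such excess. They lay below the median of the olfactory and vomeronasal receptor rows, whose probes set no detection limit. Whether low signal hides an excess there was not tested.

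Genes of other cell types moved with these arrays. Of 16 measured motile cilia genes, which mark ependymal cells, 16 lay above both other replicates in replicate 3 of PBS and of LPS, with median differences of 1.49 and 1.50. Their sum on the linear scale ranged from 3265 to 9357 within PBS, from 2183 to 6489 within LPS and from 6216 to 7379 within IL-4. Relative to the mean of PBS replicates 1 and 2, the median of these genes was 1.49 on PBS replicate 3, 1.20 on LPS replicate 3 and 0.89, 1.13 and 1.10 on the IL-4 arrays. Fcrls was at 2.82, 1.77 and 2.11, 2.50 and 2.40 on the same arrays, that is, high on the same 5 arrays. Foxj1 and Spag6l, with the highest means of the motile cilia list, were above replicates 1 and 2 of PBS by 1.04 and 2.42 on replicate 3.

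Oligodendrocyte lineage genes were higher on replicate 3 in 10 of 12 cases in PBS and 11 of 12 in LPS, with medians of 0.98 and 0.99, and their linear sum ranged from 3247 to 6946 in PBS, 2761 to 5968 in LPS and 3774 to 4621 in IL-4. Their leading genes Cnp and Olig1 exceeded the other PBS replicates by 1.02 and 0.27. Astrocyte genes were higher in 11 of 13 cases in PBS and 9 of 13 in LPS (medians 0.62 and 0.55), with linear sums of 16195 to 23072, 14884 to 20602 and 19302 to 19554 in PBS, LPS and IL-4. Pan-myeloid genes were not, with medians of −0.06 and −0.10. The border macrophage and monocyte genes had medians of 0.19 and 0.14, and among them Ednrb and Ms4a7 exceeded the other PBS replicates by 0.45 and 0.56, while Mrc1 differed by −0.97. Neuronal (Stmn2 and Map2, −0.70 and 0.72), fibroblast (Igfbp2 and Dcn, −0.90 and 0.04) and endothelial genes (Ly6c1 and Slco1c1, 0.70 and 0.18) had medians of −0.04 and −0.07, −0.06 and −0.14, and −0.06 and −0.11 in PBS and LPS. No marker was listed at 0, but the lowest value of the whole table was 2.05, so this does not show that each was detected. The part of these cell types in the values of the identity genes was not tested.

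**Figure D4:**
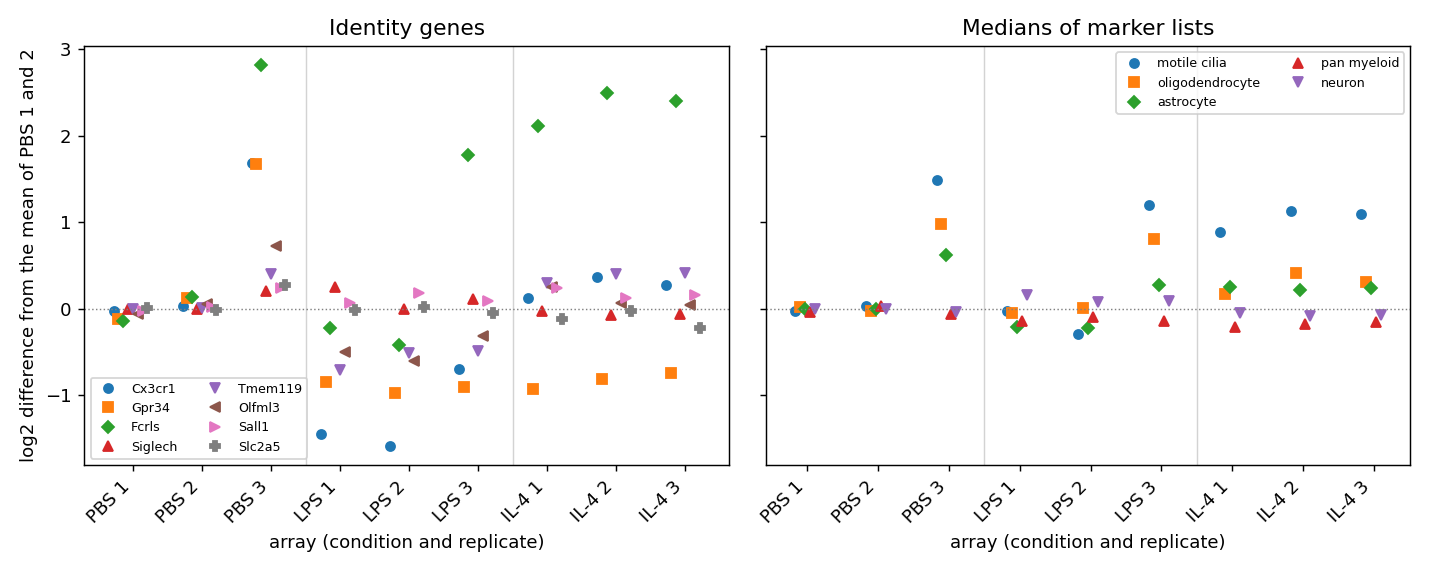
Log2 difference of each array (x axis) from the mean of PBS replicates 1 and 2, for the 8 identity genes (left) and for the medians of 5 marker lists (right). Fcrls and the motile cilia median are both high on PBS replicate 3, LPS replicate 3 and the 3 IL-4 arrays, whereas the pan-myeloid median stays between −0.22 and 0.04.

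Ligands, receptors and mediators tied to these genes were measured on the same arrays. Of 13 such genes 6 rose and 5 fell with LPS, and 2 rose and 2 fell with IL-4. Of all rows 15.4% rose and 22.4% fell with LPS, and 3.35% and 2.05% with IL-4. When replicate 3 of both was left out the counts were 6 and 5 with LPS, where 19.1% of all rows were called higher and 28.3% lower. With IL-4 they were then 4 and 2, against 16.6% and 13.5% of all rows. Cx3cl1, the ligand of Cx3cr1, measured 8.93, 8.77 and 8.89 on PBS and 10.14, 10.29 and 10.20 on LPS, with no overlap. It rose by 1.34 ± 0.06 with LPS (adjusted p = 7.45e-07) and by 0.47 ± 0.06 with IL-4 (adjusted p = 0.00377), whereas its receptor fell with LPS. In the lysophosphatidylserine pathway of Gpr34, Pla1a, a phospholipase that makes the lipid, rose by 2.16 ± 0.11 with LPS, from 5.55 to 5.87 on the PBS arrays to 7.77 to 8.06. Abhd16a, which also makes it, rose by 0.58 ± 0.06, and Abhd12, which degrades it, fell by 0.77 ± 0.09. With IL-4, Abhd12 fell by 0.50 ± 0.09 (adjusted p = 0.0198), and Pla1a gave −0.10 ± 0.11.

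Both TGF-beta receptor genes were lower with LPS. Tgfbr1 measured 10.12, 10.18 and 10.33 on PBS and 9.12, 9.11 and 9.23 on LPS, and fell by 1.05 ± 0.07 (adjusted p = 5.47e-06). Tgfbr2 fell by 0.71 ± 0.06 with LPS and by 0.47 ± 0.06 with IL-4. The ligand gene Tgfb1 gave 0.06 ± 0.13 with LPS and did not pass (adjusted p = 0.757). Of the mediators, Smad3 rose by 0.40 ± 0.09, Smad4 fell by 0.20 ± 0.06 and Smad2 (0.17 ± 0.07) did not pass. Csf1, a ligand of CSF1R, rose by 1.02 ± 0.05 with LPS and by 0.58 ± 0.05 with IL-4. Il34, the other ligand, rose by 0.52 ± 0.17 with LPS. It measured 6.73, 6.67 and 6.34 on PBS and 7.31, 7.24 and 6.74 on LPS, so LPS replicate 3 barely exceeded PBS replicate 1. The receptor gene Csf1r fell by 0.76 ± 0.10 with LPS, from 11.45 to 11.85 on PBS to 10.77 to 10.97. The growth medium had itself held M-CSF, the product of Csf1.

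**Figure D5:**
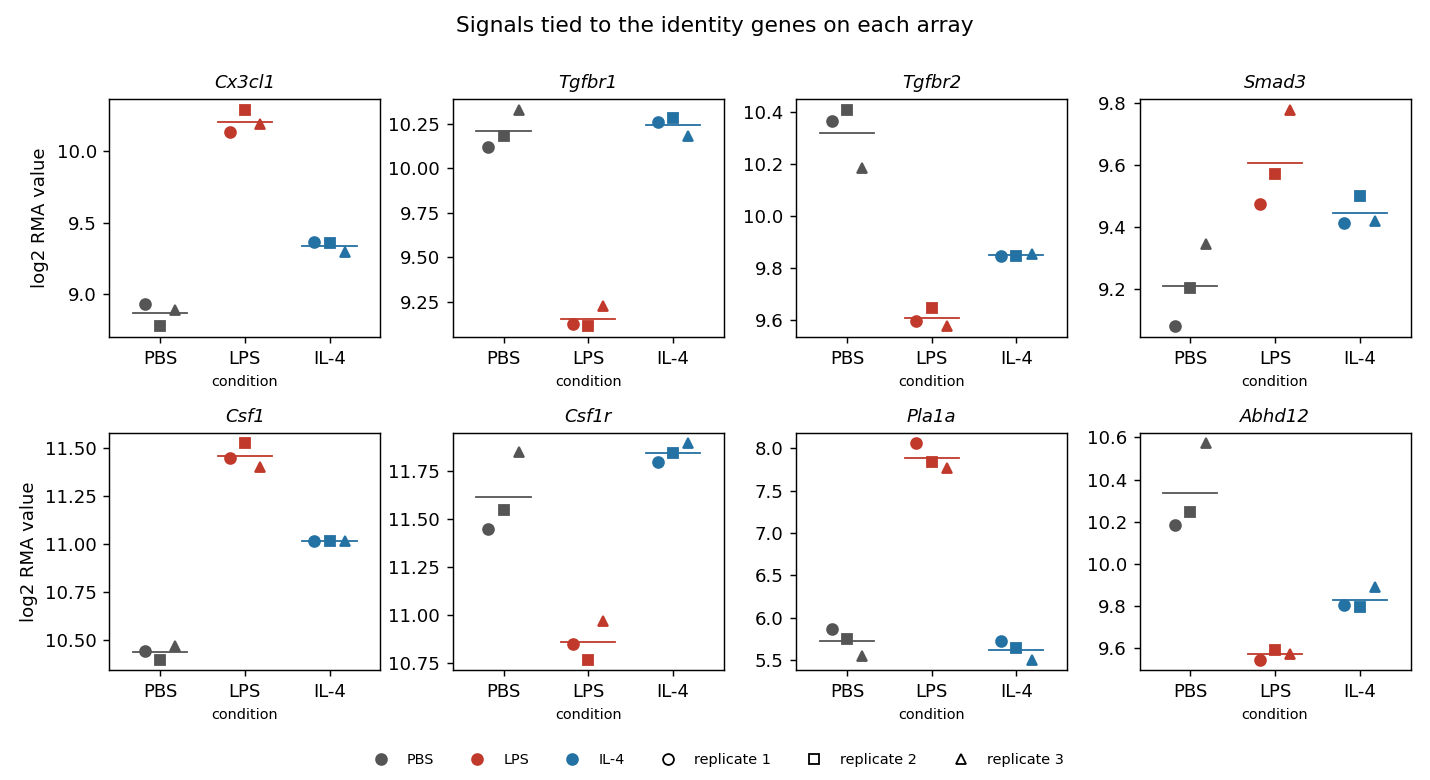
Log2 RMA values of 8 ligand, receptor and enzyme genes on the 9 arrays, 1 panel per gene with its own axis; symbols as for the identity genes and lines for condition means. The LPS arrays lie above all PBS arrays for Cx3cl1, Csf1, Pla1a and Smad3 and below them for Tgfbr1, Tgfbr2, Csf1r and Abhd12.

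Among 13 transcription factor genes of microglia 3 rose and 4 fell with LPS, with a median change of 0.04. For LPS, shares of 3 and 4 in 13 lie near the 15.4% and 22.4% of all rows and are not a result about the list. Cebpa, a myeloid factor, fell by 1.81 ± 0.10 (adjusted p = 2.68e-06), Mef2c by 1.09 ± 0.11 (adjusted p = 0.000105) and Bhlhe41 by 1.01 ± 0.33 (adjusted p = 0.0422). Bhlhe41 in LPS replicate 3 differed from the mean of the other LPS arrays by −1.32 (9.40, 9.53 and 8.14), and the gene no longer passed without PBS replicate 1 (adjusted p = 0.108), without PBS replicate 2 (adjusted p = 0.122) and without any 1 of the IL-4 arrays (adjusted p up to 0.0658). Mef2a (−0.05 ± 0.07) and Runx1 (0.10 ± 0.13) did not pass. With IL-4, 1 rose and 1 fell, against 3.35% and 2.05% of all rows. Without replicate 3 of LPS and of PBS 2 were called higher and 5 lower with IL-4, against 16.6% and 13.5% of all rows.

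Of 30 further microglia genes 18 fell and 3 rose with LPS, with a median change of −0.37, and 3 fell and 1 rose with IL-4. The LPS count stands beside 22.4% of all rows called lower and 15.4% higher, and the IL-4 count beside 2.05% and 3.35%. After subtraction of array medians the LPS count was 13 lower and 5 higher, against 15.7% and 27.7% of all rows. Of the 30, with replicate 3 of both left out, 22 were lower and 4 higher with LPS, against 28.3% and 19.1%. With IL-4 the counts were then 10 lower and 6 higher, against 13.5% and 16.6%. Vsir, a checkpoint receptor gene, measured 10.53, 10.55 and 10.54 on PBS and 8.75, 8.74 and 8.43 on LPS and fell by 1.90 ± 0.08 (adjusted p = 5.6e-07). Entpd1, which encodes the ATP-hydrolysing enzyme CD39, fell by 1.17 ± 0.30, although its values in replicate 3 were lower in both conditions and it no longer passed without PBS replicate 2 (adjusted p = 0.0502). P2ry13, a purine receptor gene, fell by 1.11 ± 0.19 with IL-4 (adjusted p = 0.0152) and gave 0.26 ± 0.19 with LPS. Its call was lost without PBS replicate 2 or any 1 of the IL-4 arrays (adjusted p of 0.052 to 0.0704). Cst3 (−0.14 ± 0.05) and C1qb (−0.19 ± 0.11), the genes with the highest row means in this list among those that missed the threshold with LPS, encode cystatin C and a complement subunit. Both were called lower without replicate 3 of LPS and of PBS (adjusted p = 0.029 and 0.048).

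Of 25 family relatives of the identity genes 4 were higher and 7 lower with LPS (median −0.10), shares near the 15.4% and 22.4% of all rows. With IL-4, 2 were higher and 4 lower, against 3.35% and 2.05% of all rows. When replicate 3 of LPS and of PBS was left out, 5 were higher and 10 lower with LPS, against 19.1% and 28.3%. The IL-4 counts became 6 higher and 10 lower, against 16.6% and 13.5%. Siglece, an inhibitory lectin and relative of Siglech, rose by 2.03 ± 0.13 with LPS (adjusted p = 6.46e-06), from 6.91 to 7.28 on PBS to 8.95 to 9.38. Slc2a6, a relative of Slc2a5, rose by 2.09 ± 0.27, and P2ry14, a receptor related to Gpr34, rose by 2.05 ± 0.19 with LPS and fell by 0.82 ± 0.19 with IL-4 (adjusted p = 0.0446). Siglec1 (−0.10 ± 0.10) and Cd33 (0.19 ± 0.16) did not pass with LPS.

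The genes whose levels followed each identity gene most closely over the 9 arrays were found by Pearson's r, given here as a description, since the arrays share conditions and replicate 3. Fcrls was followed by Hoatz, Ccdc30 and Mlf1 (r = 0.996, 0.996 and 0.995), Tmem119 by Letm2, Tlcd1 and Ckap2l (0.995, 0.992 and 0.992) and Cx3cr1 by Id4, Ddx6 and Slc9a9 (0.991, 0.986 and 0.986). Olfml3 was followed by Nova2, Ppp1r9a and Zfp84 (0.991, 0.987 and 0.985). The values were lower for Siglech (Trp63, Pak7 and Zbtb16, 0.972, 0.953 and 0.932), Gpr34 (Unc93b1, Lmo3 and Bank1, 0.968, 0.950 and 0.943), Slc2a5 (Fcrl1, Dscaml1 and Pld2, 0.938, 0.937 and 0.933) and Sall1 (Nubpl, Igflr1 and Kbtbd4, 0.915, 0.892 and 0.872). Among the identity genes themselves, Cx3cr1 and Olfml3 were most alike (0.975), and Cx3cr1 and Fcrls reached 0.736.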

How the data were processed

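The authors deposited log2 values made with RMA and affy, tools whose versions are not given in the sources used here. The table holds 21212 rows with values from 2.05 to 13.06, of which 18786 carry 1 gene symbol in the platform annotation. Depth has no counterpart on arrays, and the number of arrays limits the precision. Conditions came from the sample labels. A linear model with a mean per condition was fitted over all 9 arrays in R 4.3.3 with lmFit and eBayes of limma 3.58.1 (statmod 1.5.0), with 6 residual and 2.38 prior degrees of freedom. The Benjamini-Hochberg adjustment covered every row. Genes are called higher or lower, and said to rise or fall, at an adjusted p under 0.05. Errors are SE from the moderated variance with 3 arrays per condition. The procedure was tested on simulated data.

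The 8 genes and the other lists were chosen with earlier results of these data known. The rule for named genes took all 8 genes. From the lists of signals, transcription factors, relatives and further microglia genes it took those past the threshold with a change over 1 on the log2 scale against PBS and the 2 with the highest means that missed it with LPS. It also took the 2 marker genes per cell type with the highest means and the 3 genes most like each identity gene. Further genes that are named were picked with their values in view. List genes without a named row are not analysed here.

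Whether replicate numbers pair the arrays was read from the deviations of each array from its condition mean. For equal numbers these correlated in LPS and PBS (0.578, 0.651 and 0.800) and not throughout in IL-4 and PBS (0.339, −0.255 and 0.075). Unequal numbers also correlated in LPS and PBS (0.542 for LPS 1 with PBS 2 and 0.605 for LPS 2 with PBS 1). The pattern thus sets replicate 3 apart. Deviations within a condition cancel out, so replicates 1 and 2 then go together whatever their pairing, and these values cannot decide it. The labels give no pairing either, and the numbers were not taken to pair the arrays. Alternatives were the methods' t-test, a fit to 6 arrays, an intensity trend, array weights, quantile normalization, subtraction of array medians, leaving out dim rows, the replicate block and leaving out arrays. The miRNA arrays were not used here. Python 3.11.15 was used for tables and figures, with pandas 2.3.3, numpy 2.4.6 and matplotlib 3.10.9.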

Additional observations from a re-analysis of the deposited data

How the results depend on the processing

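The 4 genes lower with LPS than with PBS became 1 by the methods' t-test (Tmem119), 2 in a fit to the 6 arrays compared (Cx3cr1 and Tmem119) and 2 to 4 with 1 array left out, lowest without LPS replicate 2. For IL-4 against PBS the count of 0 became 4 with array weights (Fcrls, Tmem119 and Sall1 higher, Gpr34 lower). That setting called 4136 of all 21212 rows higher and 4159 lower. The count became 4 when replicate 3 was left out of both PBS and LPS, and 0 to 3 with 1 array left out, where 3 came without PBS replicate 3. The 3 genes lower with LPS than with IL-4 became 4 in a fit to the 6 arrays compared, with Fcrls added. That fit called 4139 of all rows higher and 5543 lower. The count became 5 with array weights (Fcrls added as lower and Siglech as higher) and 1 to 4 with 1 array left out. Between the stimuli array weights called 6577 of all rows higher and 6739 lower. After subtraction of array medians, which moved the median LPS change of all rows from 0.01 to 0.12, 4 were called between the stimuli, 2 lower (Cx3cr1 and Tmem119) and 2 higher (Siglech and Slc2a5). With the dimmest rows left out, 5 of the 8 genes could be tested, without Gpr34, Siglech and Slc2a5. The cause was not tested.

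The replicate block gave 5 genes lower with LPS than with PBS in the 6 arrays paired by number, with Fcrls added, and 4 over all 9 arrays. It changed no other call between LPS and PBS. Between LPS and IL-4, whose numbers were not taken to pair, the block gave 4 genes in either fit, Fcrls among them.

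The differences of the 8 genes and of the named list genes that changed sign in some setting were not called over all 9 arrays. For LPS against PBS, Siglech ranged from −0.013 (without LPS replicate 1) to 0.12 with 1 array left out, Sall1 from −0.020 (without PBS replicate 1) to 0.113, and Fcrls from −1.26 to 0.376 (without PBS replicate 3). Slc2a5 was 0.0125 after subtraction of medians and 0.0064 without replicate 3 of LPS and of PBS. For IL-4 against PBS, Cx3cr1 was 0.206 with array weights, 0.254 without replicate 3 of both and −0.601 to 0.254 (without PBS replicate 3) with 1 array left out. Olfml3 was 0.0363, 0.121 and −0.272 to 0.121 in the same settings. For LPS against IL-4, Gpr34 was 0.0761 and Sall1 0.0911 after subtraction of medians, and Sall1 was 0.0119 and Slc2a5 −0.0305 after quantile normalization.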
